A study of Mus musculus with 9 samples.

Results

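Transcripts of 10 enzymes that carry the pentose phosphate pathway or make NADPH were followed in cultured mouse valvular interstitial cells, the fibroblast-like cells of the heart valve leaflets. The enzymes were chosen by gene symbol, namely G6pdx, Pgls and Pgd of the oxidative branch, Rpia, Rpe, Tkt and Taldo1 of the non-oxidative branch, and Me1, Idh1 and Idh2, which make NADPH outside the pathway. All 10 were found among the 51810 genes of the expression matrix, and all 10 were among the 13495 genes whose mean reached 1 TPM and were therefore tested. The cells were isolated from C57BL/6J mice, from the aortic valve and the mitral valve, and formed 3 groups of 3 samples. They received oxLDL (oxidised low-density lipoprotein) at 50 ug/mL, LDL (the native particle) at 50 ug/mL, or an equal amount of buffer (Control, also labelled untreated), each for 24 h. All groups shared medium with serum, insulin and the growth factors EGF and basic FGF. Age and sex of the mice, any pooling of animals and the source of the lipoproteins are not given in the sources used here.

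In the oxidative branch, glucose 6-phosphate is turned into ribulose 5-phosphate in steps that reduce NADP to NADPH. The non-oxidative branch then exchanges carbon units between sugar phosphates, which either yields ribose for nucleotides or returns carbon to glycolysis. NADPH drives lipid and sterol synthesis and keeps glutathione and thioredoxin reduced, and G6pdx, Pgd, Tkt, Taldo1, Me1 and Idh1 are known targets of the antioxidant transcription factor NRF2 in mouse or human cells.

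The enzymes did not all move one way. Pgd and Taldo1 were higher in every lipoprotein library than in every Control library, Rpia was lower in every one, and Tkt varied least. Of all genes tested, 5.61% lay wholly above Control with LDL and 3.5% with oxLDL. Those wholly below made up 5.06% with LDL and 3.83% with oxLDL. The share that did so with both lipoproteins was not computed. Libraries sharing a replicate number departed from their group means in like ways, so the limma model was fitted without and with that number as a block (a term that takes out what same-numbered libraries share), with an adjusted p under 0.05 as the threshold. Without the block 0 of 10 enzymes passed in any comparison, against 0.333% of all genes tested for LDL set against Control, 0.0148% for oxLDL set against Control and 0.104% between the lipoproteins. At an unadjusted p under 0.05 there were 5 of 10 enzymes with LDL (6.65% of all genes), 3 of 10 with oxLDL (3.86%) and 2 of 10 between oxLDL and LDL (3.91%).

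With the block, G6pdx, Pgd and Taldo1 rose and Rpia fell with LDL, which is 4 of 10 against 0.852% of all genes (3 risers against 0.437% and 1 faller against 0.415%). With oxLDL, Pgd rose, which is 1 of 10 against 0.126% (1 riser against 0.0593% and 0 fallers against 0.0667%). When oxLDL was set against LDL 0 of 10 passed, against 0.259%. Leaving out any 1 library other than oxLDL 3 ended at least 3 of the 4 calls with LDL, and leaving out any Control library, LDL 2, oxLDL 1 or oxLDL 2 ended that of Pgd with oxLDL. The labels do not describe separate cultures or animals within a group, so the p-values speak for the spread among these libraries alone, and that spread may be technical.

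The promoters of the 4 enzymes that passed with the block for LDL against Control are shown. Their differences were not all in one direction. The stretches come from the RefSeq promoter table (GRCm38.p6), in which all 10 enzymes have an entry, and lie upstream of the RefSeq gene start, written 5′ to 3′ on the gene's strand. Where GENCODE places the first exon further upstream, the stretch stops before it. For G6pdx, whose window lies inside that exon, the 29 bases around 1 motif are given. Capitals mark the antioxidant response element core TGACNNNGC (the motif bound by NRF2) in G6pdx, the GC box GGGCGG in Pgd and Taldo1, and the CCAAT box in Taldo1, each searched on both strands and with no overlap between them. The capitals of G6pdx and of the CCAAT box read as the reverse complement.
G6pdx (chrX:74428919-74428947, minus strand): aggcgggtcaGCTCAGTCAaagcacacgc
Pgd (chr4:149166772-149166955, minus strand): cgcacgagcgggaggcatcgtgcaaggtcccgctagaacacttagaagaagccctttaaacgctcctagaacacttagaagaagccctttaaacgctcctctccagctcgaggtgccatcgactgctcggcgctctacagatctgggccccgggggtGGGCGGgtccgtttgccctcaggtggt
Taldo1 (chr7:141391910-141392159, plus strand): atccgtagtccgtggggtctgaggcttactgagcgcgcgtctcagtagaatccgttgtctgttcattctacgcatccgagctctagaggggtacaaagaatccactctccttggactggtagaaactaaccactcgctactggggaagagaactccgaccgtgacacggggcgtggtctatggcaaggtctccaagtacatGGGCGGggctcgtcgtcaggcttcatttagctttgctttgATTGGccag
Rpia (chr6:70792233-70792425, minus strand): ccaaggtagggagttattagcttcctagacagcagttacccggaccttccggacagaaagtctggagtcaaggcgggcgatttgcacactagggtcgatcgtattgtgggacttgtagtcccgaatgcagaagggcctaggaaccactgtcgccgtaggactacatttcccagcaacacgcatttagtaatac

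Over the full 250 bases upstream of the first listed start, the antioxidant response element core was found in 1 of 10 enzymes (10%), G6pdx, against 12.1% of 9673 tested genes with an entry and 10.2% of all 32851 windows. The GC box was found in 10 of 10 enzymes, against 60.6% of the tested genes and 32.7% of all windows. The CCAAT box was found in 4 of 10 (Pgd, Taldo1, Idh1 and Idh2), against 36.9% of the tested genes. The GC boxes of G6pdx and Rpia and the CCAAT box of Pgd lie outside the printed stretches. Pgd, Taldo1 and Rpia had no match to the antioxidant response core in this window, and a match or its lack is a description of these letters only.

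The cells carried the markers of their label. All 12 fibroblast and valve interstitial markers were tested, and their summed level ran from 21400 to 23400 TPM with oxLDL, 19800 to 23200 TPM with LDL and 22400 to 24300 TPM in Control. Averaged over the 9 libraries, S100a4 (8710 TPM) and Vim (5580 TPM) led this sum, and Postn (95.4 TPM) was lowest. The 8 macrophage and leukocyte markers summed to 98.3 to 625 TPM with oxLDL, 219 to 616 TPM with LDL and 218 to 427 TPM in Control, lowest in replicate 2 of every group. The 6 endothelial markers summed to 117 to 280, 115 to 295 and 110 to 258 TPM in the same order, highest in replicate 1 of every group. Lyz2 (338 TPM averaged over the 9 libraries) led the macrophage and leukocyte sum, followed by Cd68 (36.3 TPM), and Fcgr1 (1.34 TPM) was lowest. The 6 melanocyte markers reached at most 22.2 TPM, the 6 cardiomyocyte markers 64.1 TPM, the 5 adipocyte markers 33.2 TPM and the 6 erythroid markers 5.04 TPM in any library, with Cfd, an adipocyte marker, listed at 0 in all 9 libraries. The part of these cells in the enzyme levels was not tested, and in bulk RNA fewer cells of a type cannot be told apart from less RNA per cell.

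Levels in TPM, a share of transcripts corrected for gene length, can be compared between genes. Averaged over the 9 libraries, the order was Taldo1 (452 TPM), G6pdx (242 TPM), Pgd (237 TPM), Tkt (208 TPM), Me1 (138 TPM), Idh2 (115 TPM), Pgls (92.7 TPM), Idh1 (83.9 TPM), Rpe (34.8 TPM) and Rpia (13.6 TPM). Taldo1 lay above 97.6% of the tested genes and Rpia above 41.7%. Within the Control libraries G6pdx overlapped Pgd and Tkt, Idh2 overlapped Me1, Pgls and Idh1, and Pgls overlapped Idh1. Taldo1, Rpe and Rpia each lay apart from their neighbours there. The order of G6pdx, Pgd and Tkt differed by group. With oxLDL every Pgd value (275 to 284 TPM) lay above every G6pdx value (207 to 259 TPM) and every Tkt value (200 to 221 TPM), whereas in Control every Pgd value (183 to 196 TPM) lay below every Tkt value (202 to 210 TPM). The coefficient of variation over the 9 libraries was smallest for Tkt (4.14%) and largest for Taldo1 (23.6%).

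**Figure D1:**
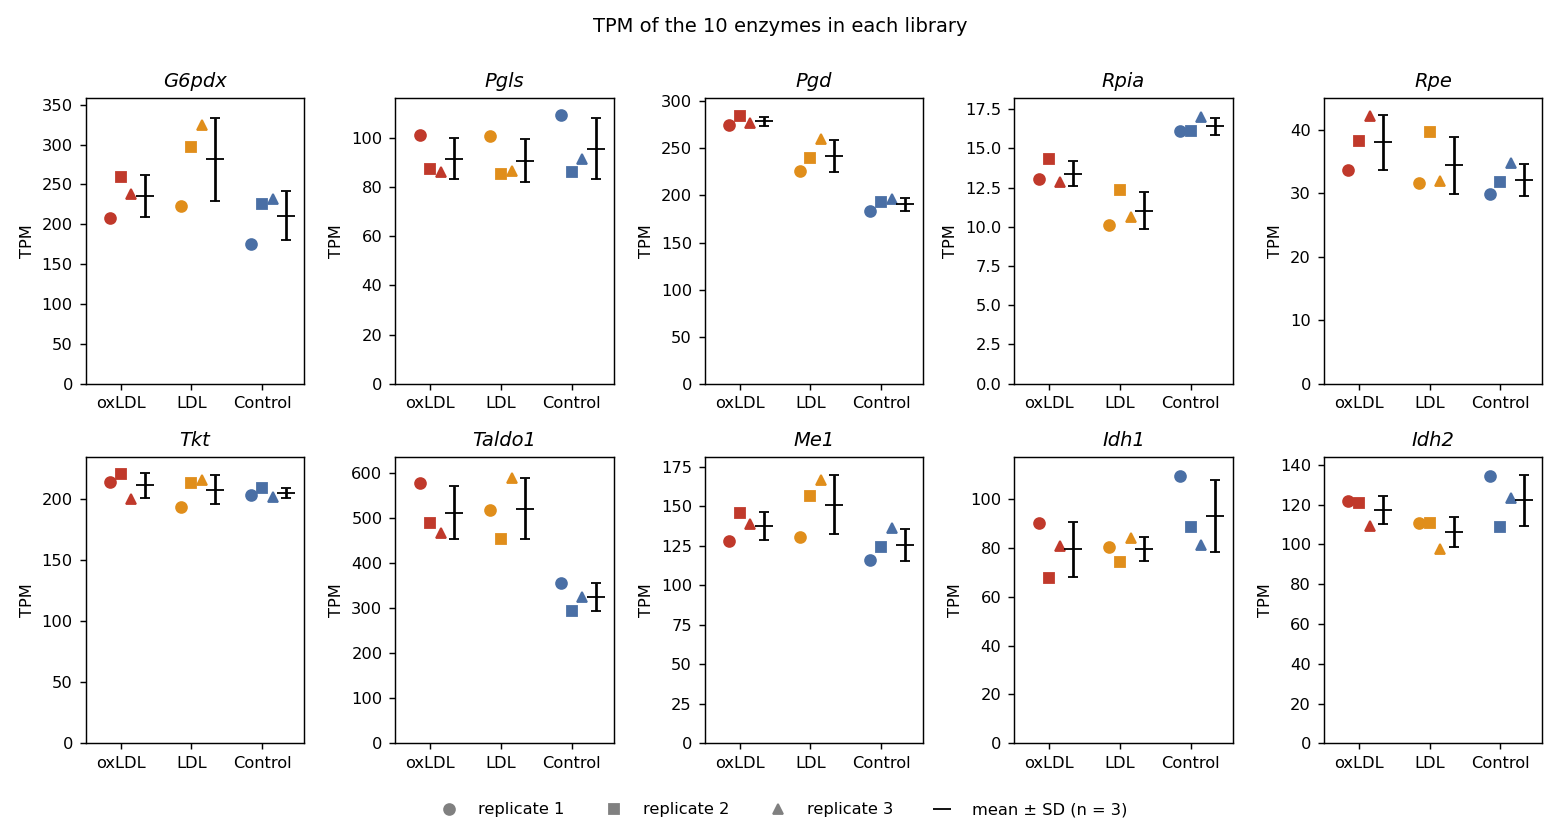
TPM (vertical axes, starting at 0) of the 10 enzymes in each library of the oxLDL, LDL and Control groups. Symbols mark replicates 1 to 3 and bars the mean ± SD (n = 3). All Pgd and Taldo1 points with oxLDL or LDL lie above those of Control, all Rpia points with oxLDL or LDL lie below, and Tkt stays between 194 and 221 TPM.

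G6pdx encodes glucose-6-phosphate dehydrogenase, which opens the oxidative branch and sets its pace (chrX:74409483-74429194, minus strand, GRCm38). It stood at 207, 259 and 239 TPM in the oxLDL libraries, at 223, 297 and 324 TPM with LDL, and at 175, 225 and 232 TPM in Control. The LDL and Control groups overlapped, because LDL 1 lay below both Control 2 and Control 3. Replicate 1 was the lowest library of each group, and LDL was the highest of the 3 treatments within each replicate number. With LDL the mean was 282 ± 52.2 TPM against 211 ± 30.7 TPM in Control (SD, n = 3 each), 33.7% higher, with a log2 difference of 0.41 (95% confidence interval 0.05 to 0.77) on the log2(TPM + 1) scale. By limma the adjusted p was 0.615 without the block and 0.0427 with it (0.0427 to 1 over 18 alternatives). Within replicate numbers 1, 2 and 3 the log2 difference was 0.35, 0.40 and 0.48, although the groups as a whole overlapped. Median-ratio scaling ended the call in the blocked fit.

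With oxLDL the G6pdx mean was 235 ± 26.2 TPM, 11.6% above Control (log2 difference 0.16, adjusted p = 1 in limma, and 0.513 with the block). Between oxLDL and LDL the log2 difference was -0.25 (95% confidence interval -0.61 to 0.11), with oxLDL lower in 3 of 3 replicate numbers and an adjusted p of 1 in limma (0.287 with the block). G6pdx overlaps Ikbkg on the other strand, and the libraries did not keep strand. Ikbkg was listed at 28.02 to 40.99 TPM, and G6pd2, the retrogene copy of G6pdx, at 0 to 0.1 TPM.

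Pgls encodes 6-phosphogluconolactonase, the middle step (chr8:71592176-71601092, plus strand). It stood at 101, 87.4 and 86.3 TPM with oxLDL, at 101, 85.3 and 86.4 TPM with LDL, and at 110, 86.1 and 91.5 TPM in Control. Replicate 1 was the highest library of each group, and the groups overlapped in every comparison. Its log2 difference was -0.07 (95% confidence interval -0.32 to 0.18) with LDL and -0.06 (-0.31 to 0.19) with oxLDL, each set against Control, with an adjusted p of 1 in limma in both.

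Pgd encodes 6-phosphogluconate dehydrogenase, the step that yields the second NADPH and ribulose 5-phosphate (chr4:149149991-149166771, minus strand). It stood at 275, 284 and 277 TPM with oxLDL, at 226, 240 and 260 TPM with LDL, and at 183, 193 and 196 TPM in Control. The 3 groups did not overlap, with every oxLDL library above every LDL library and every LDL library above every Control library. With oxLDL the mean was 279 ± 4.93 TPM against 191 ± 6.83 TPM in Control (SD, n = 3 each), 46.1% higher, and this difference ranked 3 by p among 13495 genes, ahead of every other enzyme in every comparison. Its log2 difference was 0.54 (95% confidence interval 0.40 to 0.69), with an adjusted p in limma of 0.0729 without the block and 0.00912 with it (0.00912 to 0.585 over 18 alternatives). Without the block it passed limma with no filter on low genes (adjusted p = 0.0455) and with median-ratio scaling (adjusted p = 0.0469).

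With LDL, Pgd averaged 242 ± 16.8 TPM (SD, n = 3), 26.9% above Control. The log2 difference was 0.34 (95% confidence interval 0.19 to 0.49), with an adjusted p in limma of 0.104 without the block and 0.0293 with it (0.0293 to 0.386 over 18 alternatives). Set against LDL, the oxLDL mean was 15.1% higher and the log2 difference was 0.20 (95% confidence interval 0.06 to 0.35), higher with oxLDL in 3 of 3 replicate numbers. That difference did not pass (adjusted p = 0.823 in limma, and 0.232 with the block).

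**Figure D2:**
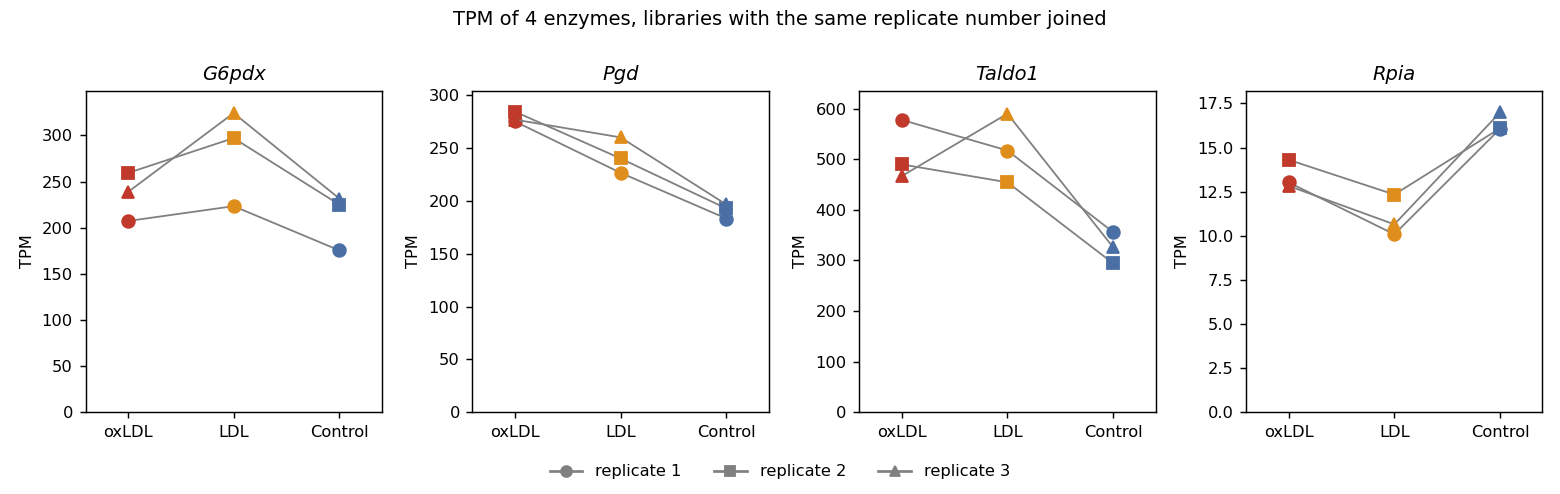
TPM (vertical axes, starting at 0) of G6pdx, Pgd, Taldo1 and Rpia in the oxLDL, LDL and Control libraries, with a grey line joining libraries of the same replicate number. Pgd is highest with oxLDL and lowest in Control along all 3 lines, G6pdx peaks and Rpia dips at LDL along all 3, and Taldo1 is lowest in Control along all 3.

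Rpia encodes ribose-5-phosphate isomerase, which turns ribulose 5-phosphate into the ribose 5-phosphate used for nucleotides (chr6:70765720-70792232, minus strand). It stood at 13.0, 14.3 and 12.8 TPM with oxLDL, at 10.1, 12.3 and 10.7 TPM with LDL, and at 16.1, 16.1 and 17.0 TPM in Control. As with Pgd the 3 groups did not overlap, but here Control was highest and LDL lowest. With LDL the mean was 11 ± 1.17 TPM against 16.4 ± 0.528 TPM in Control (SD, n = 3 each), a log2 difference of -0.54 (95% confidence interval -0.74 to -0.33), and the adjusted p in limma was 0.0647 without the block and 0.0329 with it (0.0329 to 0.317 over 18 alternatives).

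With oxLDL, Rpia averaged 13.4 ± 0.803 TPM (SD, n = 3), with a log2 difference from Control of -0.27 (95% confidence interval -0.48 to -0.07) that did not pass (adjusted p = 1 in limma, and 0.367 with the block). Between oxLDL and LDL the log2 difference was 0.26 (95% confidence interval 0.06 to 0.47), higher with oxLDL in 3 of 3 replicate numbers, and it did not pass either (adjusted p = 0.92 in limma, and 0.34 with the block).

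Rpe encodes ribulose-5-phosphate 3-epimerase, which sends the same substrate towards xylulose 5-phosphate (chr1:66700831-66719805, plus strand). It stood at 33.6, 38.2 and 42.2 TPM with oxLDL, at 31.6, 39.6 and 32.0 TPM with LDL, and at 29.9, 31.7 and 34.8 TPM in Control, and the groups overlapped. Set against Control, the log2 difference was 0.09 with LDL (95% confidence interval -0.17 to 0.35) and 0.23 with oxLDL (-0.03 to 0.49), with an adjusted p of 1 in limma in both. Rpe overlaps Kansl1l on the other strand, which was listed at 7.06 to 10.35 TPM.

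Tkt encodes transketolase, which moves 2-carbon units between sugar phosphates (chr14:30548359-30574720, plus strand). It stood at 214, 221 and 200 TPM with oxLDL, at 194, 214 and 216 TPM with LDL, and at 204, 210 and 202 TPM in Control. The groups overlapped throughout. The interval of its log2 difference ran from -0.13 to 0.16 with LDL and from -0.10 to 0.19 with oxLDL, each set against Control.

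Taldo1 encodes transaldolase, which works beside transketolase and links the pathway to glycolysis (chr7:141392199-141402968, plus strand). It stood at 578, 490 and 467 TPM with oxLDL, at 517, 454 and 590 TPM with LDL, and at 356, 294 and 326 TPM in Control. Every lipoprotein library lay above every Control library, and the oxLDL and LDL libraries overlapped. With LDL the mean was 520 ± 67.8 TPM against 325 ± 30.8 TPM in Control (SD, n = 3 each), 60% higher, with a log2 difference of 0.67 (95% confidence interval 0.40 to 0.94) and an adjusted p in limma of 0.0774 without the block and 0.0246 with it (0.0246 to 0.317 over 18 alternatives).

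With oxLDL, Taldo1 averaged 511 ± 58.7 TPM (SD, n = 3), 57.2% above Control. The log2 difference was 0.65 (95% confidence interval 0.38 to 0.92), and it did not pass (adjusted p = 0.421 in limma, and 0.0784 with the block, 0.0784 to 0.857 over 18 alternatives). Between oxLDL and LDL the log2 difference was -0.02 (95% confidence interval -0.29 to 0.25).

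Me1 encodes the cytosolic malic enzyme, which makes NADPH while turning malate into pyruvate (chr9:86581371-86695953, minus strand). It stood at 128, 146 and 139 TPM with oxLDL, at 130, 156 and 167 TPM with LDL, and at 116, 124 and 136 TPM in Control. The groups overlapped, although within each replicate number LDL was highest and Control lowest. The log2 difference was 0.26 for LDL against Control (95% confidence interval 0.03 to 0.49, adjusted p = 0.631 in limma, and 0.11 with the block) and 0.13 for oxLDL against Control (adjusted p = 1, and 0.569 with the block). The antisense gene A330041J22Rik on the other strand of Me1 was listed at 0.08 to 0.26 TPM.

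Idh1 and Idh2 encode the NADP-dependent isocitrate dehydrogenases of the cytosol and peroxisomes (chr1:65158616-65186500, minus strand) and of the mitochondria (chr7:80094846-80115392, minus strand). Idh1 stood at 90.0, 67.7 and 80.5 TPM with oxLDL, at 80.1, 74.1 and 84.0 TPM with LDL, and at 109, 88.4 and 81.0 TPM in Control. Idh2 stood at 122, 121 and 109 TPM with oxLDL, at 111, 111 and 97.5 TPM with LDL, and at 135, 109 and 123 TPM in Control. Both were highest in Control 1, and the groups overlapped for both. For LDL against Control the log2 difference was -0.21 (95% confidence interval -0.51 to 0.08, adjusted p = 0.941 in limma) for Idh1 and -0.20 (-0.41 to 0.01, adjusted p = 0.797 in limma) for Idh2. For oxLDL against Control it was -0.22 for Idh1 and -0.06 for Idh2, with an adjusted p of 1 in limma for both. For oxLDL against LDL, the log2 differences not yet given were 0.01 (Pgls), 0.14 (Rpe), 0.03 (Tkt), -0.13 (Me1), -0.01 (Idh1) and 0.14 (Idh2). Each had an adjusted p of 1 in limma. Within replicate numbers Idh2 was higher with oxLDL in 3 of 3 and Me1 was lower in 3 of 3. The 95% confidence interval ran from -0.12 to 0.40 for Rpe, from -0.36 to 0.10 for Me1 and from -0.07 to 0.35 for Idh2.

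**Figure D3:**
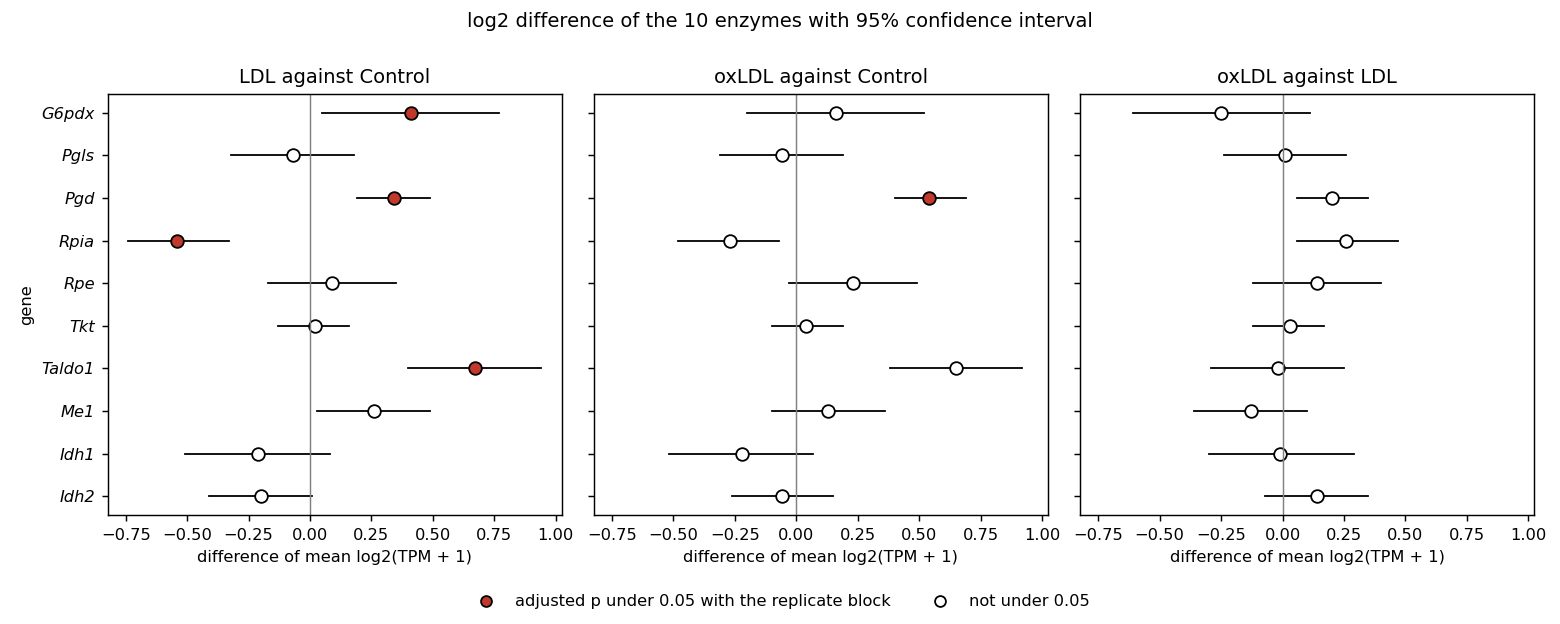
Difference of mean log2(TPM + 1) (horizontal axes) of the 10 enzymes for LDL and oxLDL set against Control and for oxLDL set against LDL, with lines for the 95% confidence interval of the fit without the block. Filled points had an adjusted p under 0.05 with the replicate block, which holds for 4 enzymes with LDL (G6pdx, Pgd, Taldo1 and Rpia), for Pgd with oxLDL and for 0 between oxLDL and LDL.

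With LDL, 6 of 10 enzymes had a higher and 4 a lower mean than with buffer, and the median log2 difference was 0.05, beside 0 for all genes tested. For 3 of 10 enzymes the groups did not overlap (10.7% of all genes), with Pgd and Taldo1 above (5.61%) and Rpia below (5.06%). With oxLDL the means were again higher for 6 and lower for 4, and the median was 0.09, beside 0 for all genes. For the same 3 enzymes the groups did not overlap (7.33% of all genes), with 2 above (3.5%) and 1 below (3.83%). Set against LDL, the oxLDL libraries did not overlap for 2 of 10 enzymes (8.31% of all genes), namely Pgd and Rpia, both above (4.11%) and 0 below (4.2%). Both comparisons with Control use the same 3 Control libraries, so the likeness of their values is not independent.

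Other choices in the blocked fit, added after the values were seen, also moved the calls. For LDL the 4 calls became 0 with no filter on low genes, 2 with only the 6 libraries compared (G6pdx and Taldo1), 1 without the mean-dependent prior (Rpia) and 3 with median-ratio scaling. Leaving out Control 2 kept Rpia, leaving out oxLDL 2 kept Taldo1, leaving out oxLDL 3 kept all 4, and leaving out any of the other 6 libraries kept 0. With oxLDL, Taldo1 passed beside Pgd without LDL 3 or without oxLDL 3. In all 18 alternatives to the fit without the block, the differences of G6pdx, Pgd, Taldo1 and Rpia with LDL and of Pgd with oxLDL kept their direction.

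Because TPM values are shares of a library, ratios within a library were set beside them, chosen after the values were seen and given without a test. Taldo1 over Tkt was 2.70, 2.22 and 2.33 with oxLDL, 2.66, 2.13 and 2.73 with LDL, and 1.75, 1.40 and 1.61 in Control. Rpe over Rpia, which share a substrate, was 2.58, 2.67 and 3.29 with oxLDL, 3.13, 3.21 and 3 with LDL, and 1.86, 1.97 and 2.05 in Control. In both ratios every lipoprotein library lay above every Control library. By itself Taldo1 lay wholly above Control and Rpia wholly below, so this follows in part from the choice and is no separate result. Pgd over Pgls, successive partners of the oxidative branch, was 2.72, 3.25 and 3.21 with oxLDL, 2.24, 2.81 and 3.01 with LDL, and 1.67, 2.24 and 2.15 in Control. The lipoprotein libraries lay above Control here too, as for Pgd by itself. LDL 1 and Control 2, however, differed by less than the digits given. Of the other ratios formed, Taldo1 over Rpia separated both lipoproteins from Control, and Me1 over Idh2 lay above Control in every LDL library but overlapped with oxLDL. G6pdx over Pgls, Idh1 over Idh2 and Me1 over Idh1 overlapped Control with both lipoproteins. G6pdx over Pgls averaged 2.59 ± 0.484 with oxLDL, 3.15 ± 0.821 with LDL and 2.25 ± 0.562 in Control (SD, n = 3 each).

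Summed over the oxidative branch, transcripts amounted to 605 ± 23.9 TPM with oxLDL, 615 ± 60.3 TPM with LDL and 497 ± 26.3 TPM in Control (SD, n = 3 each). The non-oxidative branch summed to 774 ± 59 TPM with oxLDL, 774 ± 66.7 TPM with LDL and 579 ± 26.9 TPM in Control, most of it from Taldo1. Me1, Idh1 and Idh2 together summed to 334 ± 5.89 TPM with oxLDL, 337 ± 13.9 TPM with LDL and 341 ± 19.2 TPM in Control. For both branches all lipoprotein libraries lay above all Control libraries, whereas the sums of Me1, Idh1 and Idh2 overlapped. The branch sums re-use enzymes already described, so this is no separate result and does not hold for each enzyme. With LDL, Taldo1 averaged 520 TPM against 325 TPM in Control, Tkt 208 against 205 TPM and Rpia 11 against 16.4 TPM. In the oxidative branch Pgls averaged 90.9 TPM with LDL against 95.7 TPM in Control. The share of all genes was not computed for such sums.

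Other genes around the pathway were counted from lists. Of 13 further pentose phosphate genes 8 were tested, and 0 passed in limma in any comparison with or without the block. Their median log2 difference was 0.02 with LDL and 0.04 with oxLDL, each set against Control, and -0.01 between oxLDL and LDL. H6pd, the hexose-6-phosphate dehydrogenase of the endoplasmic reticulum, stood at 105, 95.1 and 110 TPM with oxLDL, at 103, 111 and 124 TPM with LDL, and at 94.0, 85.5 and 86.3 TPM in Control. All its lipoprotein libraries lay above all Control libraries, and the log2 difference was 0.34 for LDL (adjusted p = 0.261 in limma, and 0.109 with the block) and 0.22 for oxLDL (adjusted p = 1, and 0.463 with the block). H6pd was the 1 gene of the 8 with an unadjusted p under 0.05 with LDL (6.65% of all genes) and with oxLDL (3.86%), and 0 had one between oxLDL and LDL. Tktl1, Tktl2, G6pd2, Shpk and Prps1l1 had means under 1 TPM and were not tested. The next smallest p with LDL belonged to Pgm2, a phosphoglucomutase that also handles pentose phosphates (log2 difference 0.23, adjusted p = 0.882 in limma), and for oxLDL to Prps2, which makes phosphoribosyl pyrophosphate from ribose 5-phosphate (0.18, adjusted p = 1).

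A further list held 12 genes linked to NADPH and NADP supply, though not each of them makes NADPH or NADP. It held the mitochondrial malic enzymes, the folate enzymes, Nnt, Glud1 and the NAD kinases. All 12 were tested, and 0 passed in limma in any comparison with or without the block. At an unadjusted p under 0.05 there was 1 with LDL (6.65% of all genes), 1 with oxLDL (3.86%) and 0 between the lipoproteins (3.91%). Counts of 1 in 12 are near those shares. The list's median log2 difference was -0.10 with LDL, -0.01 with oxLDL and 0.07 between oxLDL and LDL. For LDL the smallest p was that of Aldh1l1, a folate dehydrogenase of the cytosol, at 1.81 ± 0.382 TPM against 4.31 ± 2.07 TPM in Control (log2 difference -0.84, adjusted p = 0.532 in limma). For oxLDL it was that of Mthfd2l, a mitochondrial folate enzyme, at 12.6 ± 1.01 TPM against 16.0 ± 1.69 TPM in Control (log2 difference -0.33, adjusted p = 1 in limma). Of 12 genes that handle citrate, isocitrate and malate without making NADPH, 0 passed in limma in any comparison, and 2 with LDL (6.65% of all genes), 0 with oxLDL (3.86%) and 0 between the lipoproteins (3.91%) had an unadjusted p under 0.05. Here the median log2 difference was -0.01 with LDL, -0.05 with oxLDL and -0.02 between oxLDL and LDL. The 2 were Acly, which splits citrate for lipid synthesis (log2 difference -0.37 with LDL, adjusted p = 0.243 in limma), and Slc25a1, the mitochondrial citrate carrier (-0.41, adjusted p = 0.557 in limma).

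Of 9 genes for glucose uptake and the first steps of glycolysis around the branch point, all 9 had a higher mean with LDL (median log2 difference 0.34, beside 0 for all genes). Without the block 0 passed in limma, 4 reached an unadjusted p under 0.05 (6.65% of all genes), and 1 rose with the block (0.437% of all genes). This was Gpi1, which interconverts glucose 6-phosphate and fructose 6-phosphate, at 542 ± 83.9 TPM against 413 ± 56.3 TPM in Control (log2 difference 0.39, adjusted p = 0.545 in limma, and 0.035 with the block). Hk2, a hexokinase, averaged 27.5 ± 2.85 TPM with LDL against 19.1 ± 1.48 TPM in Control (log2 difference 0.50, adjusted p = 0.0976 in limma, and 0.0519 with the block). With oxLDL the median of the list was 0.10 and 0 passed in limma with or without the block. In the fit without the block 0 reached an unadjusted p under 0.05 (3.86% of all genes). With the block, Gpi1 had an unadjusted p of 0.0335 in limma. Relative to LDL all 9 had a lower mean with oxLDL (median -0.24, beside 0 for all genes). Of these, 2 had an unadjusted p under 0.05 (3.91% of all genes) and 0 passed in limma. The rise with LDL and this fall rest on the same LDL libraries and are not independent.

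Of 16 NADPH users tested, 2 rose and 3 fell with LDL in limma (0.333% of all genes passed), and with the block 3 rose and 5 fell (0.852% of all genes), with a median log2 difference of -0.02. Among those that fell, Sqle, the squalene epoxidase of cholesterol synthesis, had a log2 change of -1.37 (adjusted p = 0.0103 in limma), and Dhcr7, a reductase late in the same synthesis, had one of -1 (adjusted p = 0.0307 in limma). Blvrb, biliverdin reductase B, rose by 0.90 (adjusted p = 0.0264 in limma), and so did Nqo1, a quinone reductase, by 1 (adjusted p = 0.0371 in limma). With oxLDL (median 0.07) 0 of 16 passed in limma, and 9 reached an unadjusted p under 0.05 (3.86% of all genes). With the block 2 rose (Nqo1 and Txnrd1) and 2 fell, Sqle among them (0.126% of all genes passed). Between oxLDL and LDL 2 rose with the block (0.259% of all genes passed), among them Sqle (log2 change 0.61, adjusted p = 0.0439 in limma), while without it 0 passed and 5 reached an unadjusted p under 0.05 (3.91% of all genes).

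**Figure D4:**
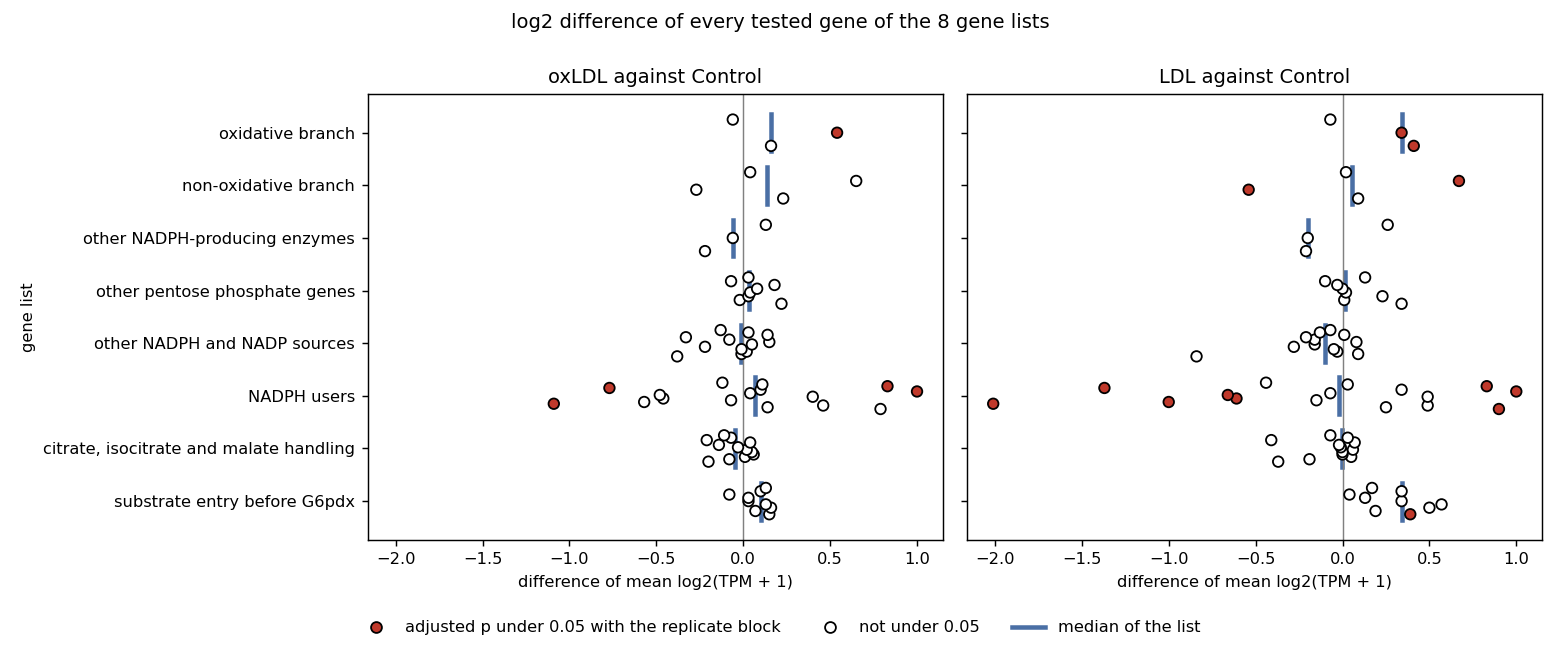
Difference of mean log2(TPM + 1) (horizontal axes) for oxLDL against Control and LDL against Control, with 1 point per tested gene in each of the 8 gene lists and a blue bar at the list median. Filled points had an adjusted p under 0.05 with the replicate block, and NADPH users hold points far to both sides, such as Sqle at -1.37 and Nqo1 at 1 with LDL.

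Genes were sought whose profile over the 9 libraries lay closest to the mean log2 level of G6pdx, Pgd, Tkt and Taldo1. Of these, Taldo1 varied most (coefficient of variation 23.6%) and Tkt least (4.14%), and G6pdx and Tkt overlapped Control with both lipoproteins. The mean profile therefore need not resemble each of its members. Closeness was the mean absolute difference of standardised values. The 8232 candidates had a mean of 10 TPM or more. The 10 enzymes, clone names, Gm and Rik gene models, pseudogenes and symbols missing from GENCODE were left out. The closest was Blvrb (0.136 SD), followed by Abcc1, an exporter of glutathione conjugates (0.161 SD), Txnrd1, thioredoxin reductase (0.188 SD), Tuba4a, an alpha-tubulin (0.188 SD), and Gsta4, a glutathione S-transferase (0.193 SD). Blvrb stood at 169, 165 and 158 TPM with oxLDL, at 153, 163 and 220 TPM with LDL, and at 93.1, 87.9 and 102 TPM in Control. Txnrd1 stood at 366, 420 and 403 TPM with oxLDL, at 332, 383 and 488 TPM with LDL, and at 201, 199 and 276 TPM in Control. In Blvrb and Txnrd1 every lipoprotein library lay above every Control library, and LDL 3 was the highest of the 9. Both were picked for their profile over these same libraries, so this likeness follows in part from the choice and is no separate result.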

How the data were processed

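RNA was sequenced from 9 libraries, 3 per treatment. The authors deposited TPM values, and STAR (no version given), RSEM 1.3.1 and the build mm10 are named per the submitters' processing notes. Which gene annotation was used is not given in the sources. TPM keeps no depth, so the number of reads behind a value is unknown and no interval for counting error was computed. The libraries came from a kit that does not mark strand, per the labels' protocols. Values were analysed as log2(TPM + 1), which understates changes of low genes, for 13495 genes with a mean of 1 TPM or more (38315 left out). Tests were two-sided, in limma 3.58.1 (R 4.3.3, mean-dependent prior), with Benjamini-Hochberg adjustment over all genes tested and a threshold of 0.05. One spread was estimated from all libraries (6 residual degrees of freedom, 4 with the block). The fit without the block was tried on simulated data that held no replicate effect. The blocked fit was not tried in this way. A permutation of 3 against 3 cannot go below 0.1, so none was run. Replicate numbers come from the titles. Deviations from group means correlated at 0.172 to 0.497 in 9 same-numbered pairs and at -0.309 to 0.13 in 18 others. These pairs are not independent, because deviations within a group balance out. The pairing is thus read from the same values that were tested, and no label ties a number to a culture or day. Enzymes, lists and the rule for named genes (all 10 enzymes, up to 4 called or else up to 2 genes of other lists by p, and the 5 nearest profiles) were chosen with earlier results of these data known, and 1 gene that the rule selects is not reported here. GC and CCAAT boxes were added after the values were seen. Positions are from GENCODE M21 (GRCm38). Alternatives changed the pseudocount, filter, scaling, block, prior and libraries.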

Additional observations from a re-analysis of the deposited data

How the results depend on the processing

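Without the replicate number, 45, 2 and 14 genes passed for LDL against Control, for oxLDL against Control and for oxLDL against LDL. In the same order the count was 115, 17 and 35 with the replicate block, 19, 10 and 8 with no filter on low values, and 9, 1 and 6 with only the 6 libraries compared. It was 1 and 8 without the mean-dependent trend and 1 with a pseudocount of 5 where these moved it (oxLDL against Control for both, and oxLDL against LDL for the trend). Leaving out 1 library gave 4 to 37, 1 to 3 and 1 to 10. Median-ratio scaling gave 23 rises and 12 falls for LDL against Control, against 24 and 21, and 4 and 12 for oxLDL against LDL, against 5 and 9. Of the enzymes, 0 passed as reported without the block. With it 4 passed for LDL and 1 for oxLDL, and without it 1 passed for oxLDL (Pgd) with no filter and with median-ratio scaling. Further fits with the block, added after seeing the data, gave for LDL 0 with no filter, 2 with only the 6 libraries, 1 without the trend and 0 to 4 when 1 library was left out. For oxLDL they gave 0 with only the 6 libraries, 0 without the trend and 0 to 2 when 1 library was left out. The cause was not tested.

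Leaving out 1 library turned the sign of differences near 0 that had not passed. For LDL against Control, Pgls ran from -0.15 to 0.03, Rpe from -0.01 to 0.15 and Tkt from -0.01 to 0.06. For oxLDL against Control, Pgls ran from -0.13 to 0.04 and Idh2 from -0.14 to 0.02. For oxLDL against LDL, Pgls ran from -0.06 to 0.09, Tkt from -0.02 to 0.07, Taldo1 from -0.12 to 0.07 and Idh1 from -0.10 to 0.10. The block changed the call of the 5 enzyme differences named above and of no other enzyme difference.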

Other observations

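Nnt, the mitochondrial transhydrogenase that makes NADPH from NADH, was listed at 41.2, 44.8 and 30.4 TPM with oxLDL, at 39.3, 45.5 and 35.4 TPM with LDL, and at 42.7, 38.2 and 45.1 TPM in Control. C57BL/6J mice are known to carry a deletion within this gene that leaves no working protein, and values summed over a gene do not show which exons were read.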
